A study of Homo sapiens with 6 samples.

Results

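RNA-seq counts of U-2OS cells were examined at 6 non-coding rows of the deposited table that lie at 5 stress-response gene loci, out of 35036 rows in all. The rows were chosen by name from earlier results of these data: ENSG00000302960 at TRIB3 and CARS1-AS1 (ENSG00000247473) at CARS1, for amino acid stress; HYOU1-AS1 (ENSG00000255114) at HYOU1 and ENSG00000267458 at CALR, for chaperones of the endoplasmic reticulum; and ENSG00000287296 and ENSG00000267598 at the immediate early gene IER2. U-2OS is a human osteosarcoma cell line. All libraries came from cells given actinomycin D, which blocks transcription; 3 carried a control siRNA (siCtrl) and 3 an siRNA against SFPQ (siSFPQ), an RNA-binding protein of the nucleus. For the drug, neither a dose nor a time is given in the sources used here, and the samples include no cells without it. Nothing in the labels ties each library to its own culture, so p-values measure the spread between these libraries, which may be technical.

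The table held 1298658 to 1599566 counts per library. Its rows are mainly non-coding, although 50 of the 13886 row identifiers that are also in GENCODE 29 are annotated there as protein-coding. None of the coding genes of the lists used below, and none of 5 osteoblast lineage markers looked for, had a row of its own. The level of SFPQ itself was not analysed here. Values below are CPM, counts relative to each library's total over the rows with enough counts to be tested, after TMM scaling. Counting did not separate the strands of overlapping genes: MALAT1 and TALAM1, which lie over each other on opposite strands, held 72563 and 72552 counts. Reads of a coding gene can therefore be counted in a row that overlaps its exons. In these bulk libraries a change in RNA per cell and a change in the number of cells that hold the RNA cannot be told apart.

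Shortage of amino acids or of charged tRNA activates the kinase GCN2, and misfolded proteins in the endoplasmic reticulum activate the kinase PERK; both phosphorylate the translation factor eIF2 and raise the transcription factor ATF4. ATF4 binds C/EBP-ATF response elements (CARE) and drives genes such as TRIB3, a pseudokinase that restrains AKT and ATF4 itself, and CARS1, the cytoplasmic cysteinyl-tRNA synthetase. Misfolded proteins also activate ATF6 and XBP1, which act through endoplasmic reticulum stress elements (ERSE and ERSE-II) on chaperone genes such as CALR, the calcium-binding lectin chaperone calreticulin, and HYOU1, a large relative of HSP70. IER2 is a short gene that growth factors and stress induce quickly and without new protein synthesis, and its RNA is short-lived.

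The 6 rows lie on the strand opposite to their coding gene. Positions are those listed in the table, read as GRCh38, with gene models from GENCODE 29. ENSG00000302960 (chromosome 20, 376686 to 381014, minus strand, 463 exonic bases) starts 281 bases upstream of the first TRIB3 start in the RefSeq promoter table, at 381295, and runs away from it. Annotated TRIB3 transcripts also begin further upstream: the span takes in 398 bases of an exon of 1 of them and lies wholly in an intron of another. The RefSeq gene itself starts at 380760, inside the span, so the row overlaps the 5′ end of TRIB3. CARS1-AS1 (chromosome 11, 3029009 to 3041260, plus strand, 2683 exonic bases) lies inside CARS1, and 7.6% of its exon bases fall on CARS1 exons. Its exon from 3040780 to 3041260 holds a second RefSeq start of CARS1, at 3040984. HYOU1-AS1 (chromosome 11, 119044188 to 119045493, plus strand, 667 exonic bases) and ENSG00000267458 (chromosome 19, 12944118 to 12944487, minus strand, 270 exonic bases) lie over the 3′ ends of HYOU1 and CALR. On HYOU1 exons fell 99.9% of the exon bases of HYOU1-AS1, with 0.7% on coding sequence. All exon bases of ENSG00000267458 fell on CALR exons and none on coding sequence.

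The rows at IER2 are 157 bases apart and do not overlap. ENSG00000287296 (chromosome 19, 13152252 to 13152913, minus strand, 662 exonic bases) falls wholly in the intron of the 2 spliced isoforms. It also falls wholly in the 5′ UTR of an isoform that starts inside that intron and has a single exon. ENSG00000267598 (chromosome 19, 13153071 to 13154193, minus strand, 946 exonic bases) lies over the terminal exon, with 52.0% of its exon bases on coding sequence. CALR and IER2 lie on the same chromosome, 205.9 kb apart.

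**Figure D1:**
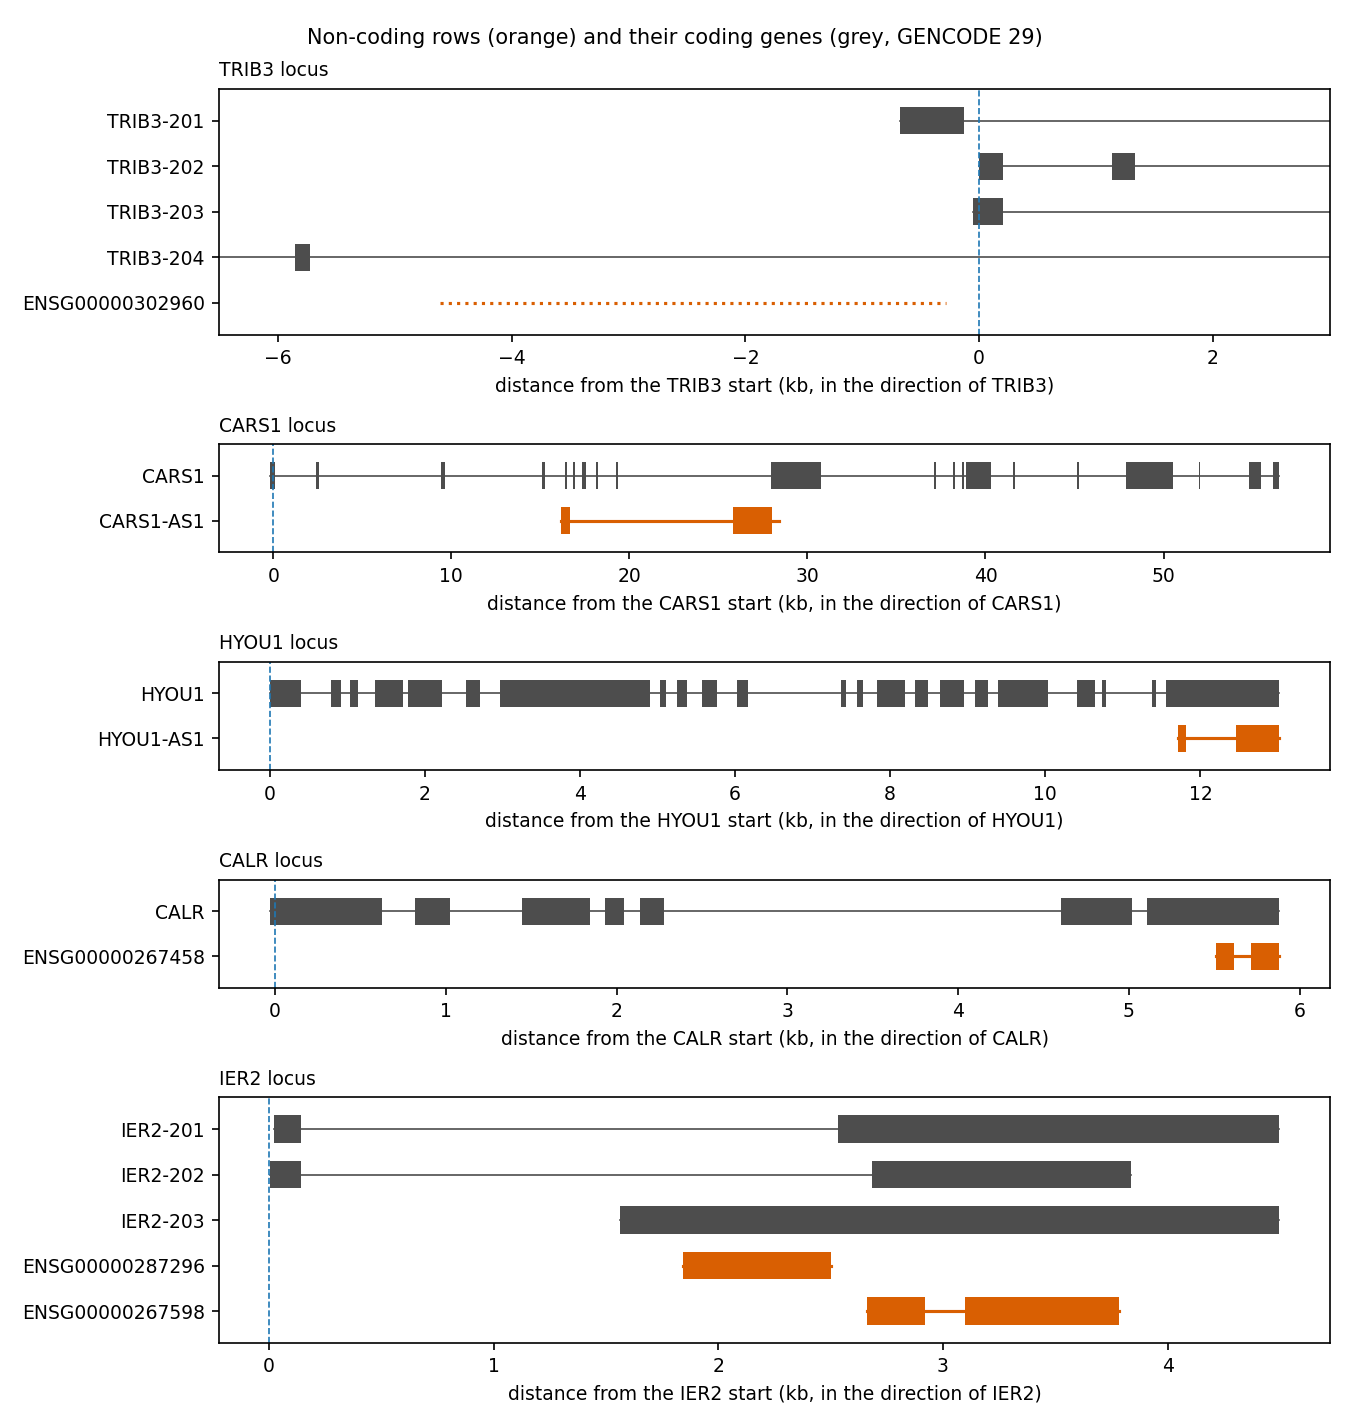
Position of the 6 rows (orange) and of their coding genes (grey, GENCODE 29 exons, by transcript for TRIB3 and IER2 and merged for the others) in kb from the coding gene's RefSeq start (dashed line). The TRIB3 axis is cropped on both sides, and the dotted row has a listed span with exons not used here. ENSG00000302960 lies upstream of the TRIB3 start, HYOU1-AS1 and ENSG00000267458 over the 3′ end, and ENSG00000287296 in the intron of 2 IER2 isoforms.

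The promoters of the coding genes show how the loci differ in the elements named above. RefSeq (GRCh38.p14) windows of 300 bases, 250 before and 50 after the start, were available for all 5 coding genes and for 1 of the 6 rows, CARS1-AS1. They were searched on both strands for TGATGNAA (CARE), TGACGTCA (CRE), TGANTCA (AP-1), the CArG box, ERSE and ERSE-II, the last pair with the letters shown, in reverse complement, in the HYOU1 and CALR windows apart from unspecified spacer bases. The 4 windows below are written 5′ to 3′ on the coding gene's strand with matches in capitals. The TRIB3 window is shown because it lies between the TRIB3 start at 381295 and the start of ENSG00000302960.
TRIB3, chr20:381045-381344, plus strand: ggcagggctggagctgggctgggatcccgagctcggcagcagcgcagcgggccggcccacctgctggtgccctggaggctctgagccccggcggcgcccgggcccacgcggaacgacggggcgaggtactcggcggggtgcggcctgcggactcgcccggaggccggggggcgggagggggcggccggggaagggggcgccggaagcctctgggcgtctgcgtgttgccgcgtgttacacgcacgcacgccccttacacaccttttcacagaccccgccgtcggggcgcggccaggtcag
CARS1, chr11:3057374-3057673, minus strand: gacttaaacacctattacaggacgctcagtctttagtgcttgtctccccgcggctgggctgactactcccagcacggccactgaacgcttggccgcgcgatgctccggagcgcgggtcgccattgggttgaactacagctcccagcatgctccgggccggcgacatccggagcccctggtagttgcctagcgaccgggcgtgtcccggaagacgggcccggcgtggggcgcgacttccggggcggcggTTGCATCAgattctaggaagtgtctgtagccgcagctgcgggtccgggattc
HYOU1, chr11:119057156-119057455, minus strand: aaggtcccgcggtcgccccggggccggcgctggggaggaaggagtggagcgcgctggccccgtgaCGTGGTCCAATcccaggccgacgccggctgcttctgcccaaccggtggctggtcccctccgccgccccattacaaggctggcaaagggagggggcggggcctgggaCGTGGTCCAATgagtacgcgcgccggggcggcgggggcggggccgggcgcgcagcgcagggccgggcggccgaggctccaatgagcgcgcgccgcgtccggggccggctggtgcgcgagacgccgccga
CALR, chr19:12938359-12938658, plus strand: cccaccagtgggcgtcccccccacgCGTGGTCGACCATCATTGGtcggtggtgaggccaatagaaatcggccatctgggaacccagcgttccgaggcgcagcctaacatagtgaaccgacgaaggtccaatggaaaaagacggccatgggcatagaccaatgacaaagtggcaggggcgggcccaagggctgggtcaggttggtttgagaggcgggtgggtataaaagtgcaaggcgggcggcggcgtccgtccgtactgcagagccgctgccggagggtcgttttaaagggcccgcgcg

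With the start base as 0, CARS1 held a CARE on the opposite strand at -2 to 5, HYOU1 an ERSE-II at -185 to -175 and another at -79 to -69, and CALR an ERSE at -225 to -207. None of the 6 motifs was found in the windows of TRIB3, IER2 or CARS1-AS1, or in that of the inner CARS1 start. Of 35116 windows in the RefSeq table, 3.62% held a CARE, 0.0769% an ERSE and 0.0541% an ERSE-II. Counted by gene, a CARE was found for 18 of 53 genes of an amino acid and integrated stress response list (34.0%) and for 4.46% of all genes. An ERSE was found for 8 of 49 genes of an endoplasmic reticulum chaperone list (16.3%) and an ERSE-II for 3 of them, against 0.0916% and 0.0696% of all genes. The lists include genes known to be driven through these elements, such as CARS1, CALR and HYOU1. Their higher shares are therefore not independent of how the lists were made. A match describes the letters of the window and is not a measurement of binding. An absent match covers only these letters and windows, and the TRIB3 transcripts that begin further upstream had no window.

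The rows were chosen with the siSFPQ and siCtrl values known, so their differences are given without a test. At the amino acid stress loci both rows had more counts in siSFPQ. ENSG00000302960, which overlaps the 5′ end of TRIB3, had 1, 1 and 0 counts in the siCtrl libraries and 16, 19 and 13 in the siSFPQ libraries. How many of these were reads of TRIB3 was not tested. The groups did not overlap, at 0.464 ± 0.403 CPM in siCtrl and 10.8 ± 2.10 CPM in siSFPQ (SD, n = 3 each). The ratio of summed counts, 48 against 2 and scaled for library size, was 22.6 with an exact 95% interval of 5.94 to 192, which covers counting error only. The interval leaves out the spread between libraries and the choice of the row from this contrast, so it is no test. CARS1-AS1 had 111, 123 and 121 counts in siCtrl and 171, 199 and 172 in siSFPQ. In CPM these were 79.2, 83.6 and 90.5 against 131, 124 and 111, so every siSFPQ library lay above every siCtrl library. The means were 84.4 ± 5.71 and 122 ± 9.85 CPM, and the log2 fold change from the edgeR fit was 0.53 ± 0.11 (SE). The row at TRIB3 was thus close to 0 in siCtrl, while the row inside CARS1 was well counted in both groups.

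At the chaperone loci both rows had fewer counts in siSFPQ, and by a small step. HYOU1-AS1, over the end of HYOU1, stood at 629, 618 and 578 CPM in siCtrl and at 462, 465 and 471 CPM in siSFPQ. ENSG00000267458, over the end of CALR, stood at 2132, 2025 and 1980 CPM in siCtrl and at 1666, 1683 and 1696 CPM in siSFPQ. In each case all siSFPQ libraries lay below all siCtrl libraries. Coefficients of variation were 1.01% and 0.897% in siSFPQ and 4.40% and 3.80% in siCtrl. The siSFPQ ones are smaller than counting error alone would give for 605 to 747 and 2182 to 2702 counts. They are thus no measure of precision. The means were 608 ± 26.8 and 466 ± 4.70 CPM for HYOU1-AS1 and 2046 ± 77.7 and 1682 ± 15.1 CPM for ENSG00000267458 (SD, n = 3 each). The log2 fold changes were -0.38 ± 0.06 and -0.28 ± 0.05 (SE). With plain library totals in place of TMM they were -0.32 and -0.22. Without siCtrl replicate 3, the lowest siCtrl library for both rows, they were -0.43 and -0.32.

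At IER2 the rows differed from each other. ENSG00000287296, over the intron of the spliced isoforms, had 3, 3 and 2 counts in siCtrl and 29, 26 and 28 in siSFPQ. These are 2.14, 2.04 and 1.5 CPM against 22.1, 16.2 and 18.1 CPM, and no siCtrl library came near the siSFPQ range. The log2 fold change was 3.23 ± 0.40 (SE), and the ratio of summed counts, 83 against 8, was 9.79 with an exact 95% counting interval of 4.74 to 23.4. That interval has the same limits as the one given for the row at TRIB3. ENSG00000267598, over the terminal exon, stood at 183, 198 and 203 CPM in siCtrl and at 172, 214 and 199 CPM in siSFPQ. Its groups overlapped, with means of 195 ± 10.7 and 195 ± 21.2 CPM and a log2 fold change of 0.01 ± 0.08 (SE). Its ratio of summed counts was 1.01, with an interval of 0.916 to 1.11. Per kb of exonic length, ENSG00000287296 was at 1.67%, 1.47% and 1.05% of the level of ENSG00000267598 in the siCtrl libraries and at 18.4%, 10.8% and 13.0% in the siSFPQ libraries. The row with more counts in siSFPQ was thus the less abundant one, upstream of the terminal exon.

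**Figure D2:**
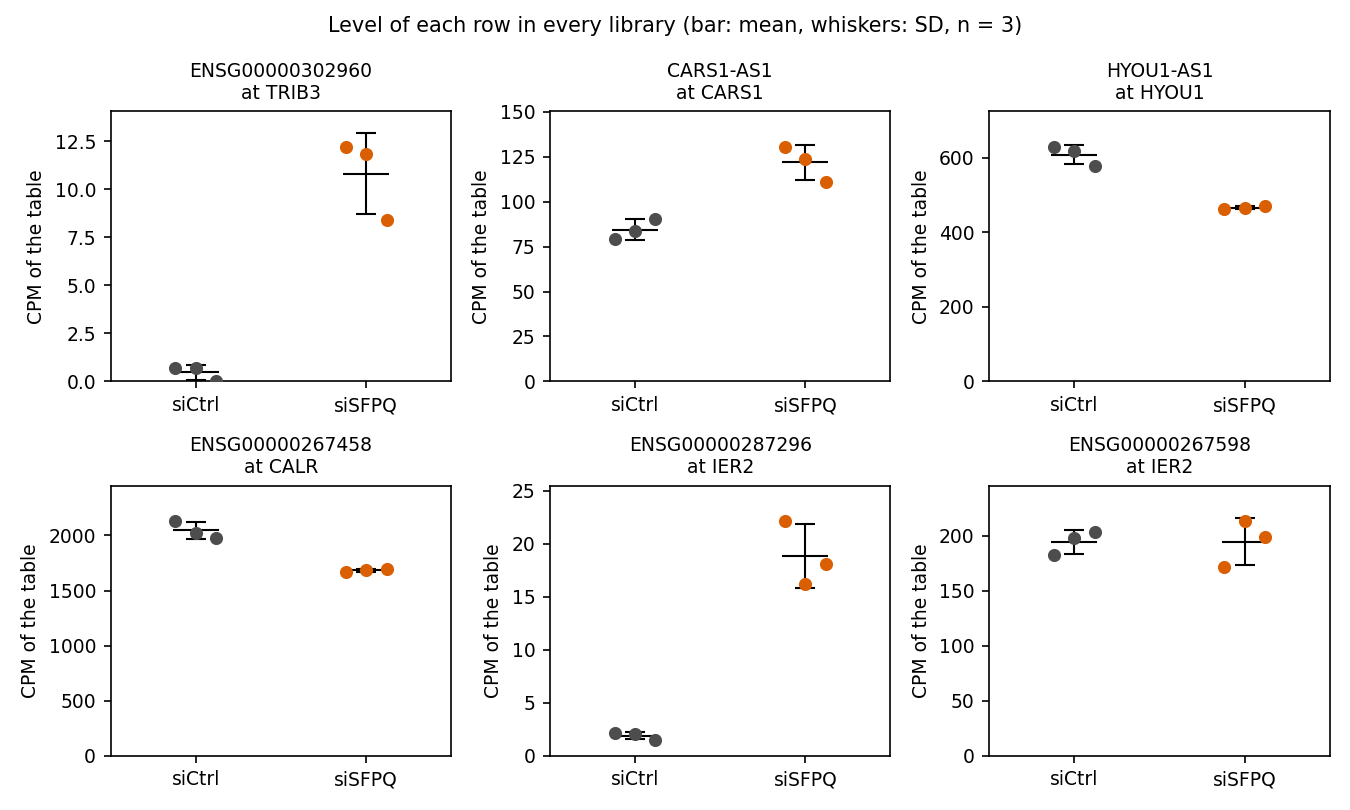
CPM of each of the 6 rows in every library, with siCtrl in grey and siSFPQ in orange; bars are means and whiskers SD over 3 libraries, and each panel has its own axis from 0. The groups are apart in 5 panels and overlap for ENSG00000267598, at 195 CPM in both groups.

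In all, 3 of the 6 rows lay wholly higher in siSFPQ, 2 wholly lower and 1 overlapped. Among the 6325 rows that passed the count filter, the groups did not overlap for 54.0%, of which 27.1 percentage points were higher and 26.9 lower. Since the rows were picked from this contrast, nothing is read from that count. The comparison between loci is likewise a description: rows at amino acid stress genes were higher, rows at chaperone genes lower, and the rows at IER2 either far higher or level.

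Levels per kb of exonic length set the rows in a wide order. In siCtrl, ENSG00000267458 stood at 7576 ± 288 CPM per kb, HYOU1-AS1 at 912 ± 40.1, ENSG00000267598 at 206 ± 11.4, CARS1-AS1 at 31.5 ± 2.13, ENSG00000287296 at 2.86 ± 0.523 and ENSG00000302960 at 1.00 ± 0.869 (SD, n = 3). No neighbours in that order overlapped, although the last 2 rest on 8 and 2 counts in all. In siSFPQ the order was the same, at 6229 ± 55.9, 699 ± 7.05, 206 ± 22.5, 45.4 ± 3.67, 28.4 ± 4.59 and 23.4 ± 4.54 CPM per kb. There ENSG00000287296, at 24.5 to 33.5, and ENSG00000302960, at 18.2 to 26.4, overlapped. Among all tested rows, the rows over the CALR and HYOU1 ends were at percentiles 99.7 and 98.1 of the siCtrl level. ENSG00000302960 went from percentile 2.2 in siCtrl to 60.2 in siSFPQ and ENSG00000287296 from 12 to 65.4. Both passed the count filter through their siSFPQ counts alone and were chosen from this contrast, so nothing is read from the climb. The 3 most abundant rows lie over exons at the 3′ end of their coding genes. ENSG00000287296 also lies on an exon, that of the single-exon IER2 isoform, and was the fifth in order. How much of the counts of these rows came from the coding gene was not tested.

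Other rows at these loci were not chosen for their values, and their tests stand on the fit over all rows. Within 10 kb of the 5 coding genes the table had 10 further rows, of which 3 passed the count filter. ENSG00000267512 (chromosome 19, 13139617 to 13141147), upstream of IER2 and over the end of the neighbouring gene NACC1, rose from 136 ± 10.1 to 340 ± 20.4 CPM (log2 fold change 1.32 ± 0.08 SE, edgeR, adjusted p = 4.5e-59). ENSG00000183562 (chromosome 11, 2989863 to 2991344), downstream of CARS1 and over NAP1L4, fell from 25.5 ± 3.01 to 15.6 ± 2.90 CPM (log2 fold change -0.69 ± 0.23 SE, edgeR, adjusted p = 0.0069). That call was lost with DESeq2 (adjusted p = 0.0661) and without siSFPQ replicate 3 (edgeR, adjusted p = 0.0589). FARSA-AS1, upstream of CALR, had 10.5 ± 4.35 and 16.0 ± 1.43 CPM and was not called (log2 fold change 0.60 ± 0.28 SE, edgeR, adjusted p = 0.064). It passed without siCtrl replicate 3 (adjusted p = 0.0263), with limma-voom (0.0469) and with plain library totals (0.0382). Without siCtrl replicate 1, its lowest library, the log2 fold change was 0.30 (adjusted p = 0.445), and DESeq2 gave an adjusted p of 0.255. The remaining 7 had no or too few counts to test, among them ENSG00000285644 at the CARS1 start, with 3, 3 and 5 counts in siCtrl and 4, 18 and 4 in siSFPQ.

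**Figure D3:**
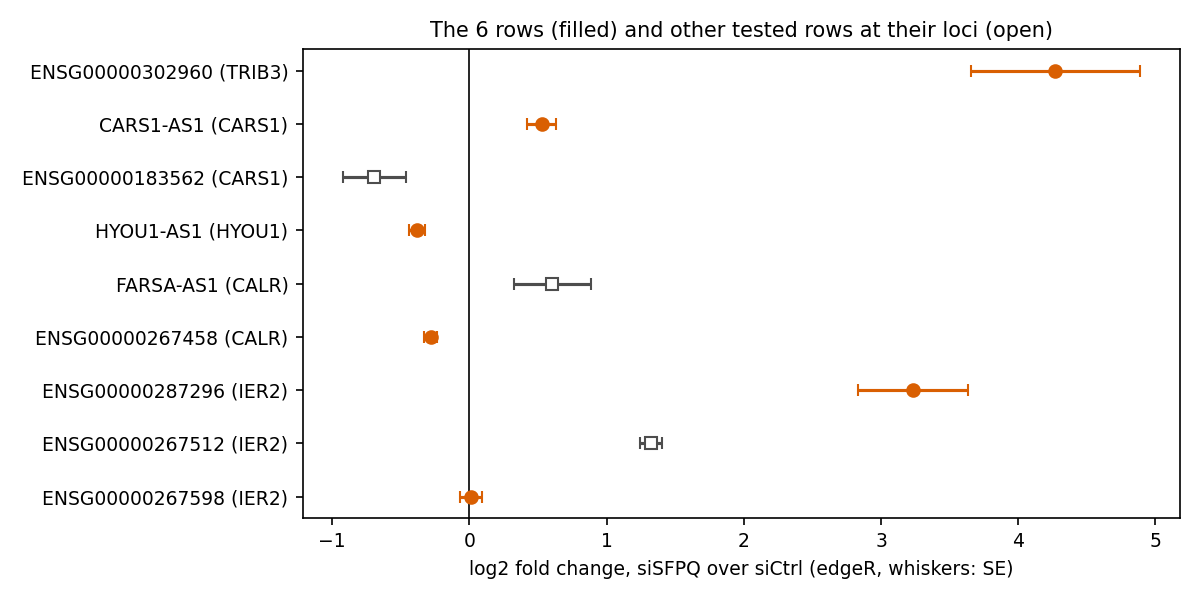
Log2 fold change of siSFPQ over siCtrl with its SE (edgeR) for the 6 rows (filled circles) and the 3 other tested rows within 10 kb of their coding genes (open squares). The value of ENSG00000302960, 4.27, rests on 2 siCtrl counts and depends on the prior count of the fit. At IER2, values run from 0.01 to 3.23 with the upstream ENSG00000267512 at 1.32 between them.

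Wider lists of coding genes were then followed through the non-coding rows over their exons, leaving out the 6 rows above. The lists were chosen with earlier results of these data known, so their counts are a description. Most rows named from them are those with the smallest adjusted p. Of all 6325 tested rows, 24.5% were called higher and 24.0% lower by edgeR at an adjusted p under 0.05, 48.4% in all, with a median log2 fold change of 0.01. A row can hold reads of its coding gene and of other genes in its span, so each count below is of rows and not of coding genes. Of 33 tested rows over amino acid and integrated stress response genes, 14 rose, 3 fell and 16 were not called, with a median of 0.10. ENSG00000289754, whose span takes in the stress-induced chromatin protein gene NUPR1 and 3 further coding genes, rose from 327 ± 10.7 to 980 ± 14.0 CPM (log2 fold change 1.58, edgeR, adjusted p = 4.4e-150). ENSG00000275719, over the glutamine transporter gene SLC1A5, rose from 99.8 ± 16.1 to 273 ± 10.2 CPM (1.45, adjusted p = 9.5e-58). PYCR1-AS1, at a proline synthesis gene, rose by 0.68 and ENSG00000284707, over the asparagine synthetase gene ASNS, by 0.50 on the log2 scale (edgeR, adjusted p = 6.7e-35 and 6.4e-24). The rows that fell were ENSG00000286670 over VLDLR (-0.63), ENSG00000251556 over the leucyl-tRNA synthetase gene LARS1 (-0.38) and ENSG00000258666 over the tryptophanyl-tRNA synthetase gene WARS1 (-0.26, edgeR, adjusted p = 0.020). The WARS1 row lost its call without siCtrl replicate 1 (adjusted p = 0.101) or siSFPQ replicate 2 (0.194), with DESeq2 (0.109), plain totals (0.0888) and no filter (0.0526). Besides CARS1-AS1, 3 rows over aminoacyl-tRNA synthetase genes were tested, and 0 of them rose. The other one, GARS1-DT, was not called (0.08, edgeR, adjusted p = 0.28).

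Rows whose coding gene has a CARE in its promoter window can be set beside those without one. Of 8 tested rows at list genes with a CARE, 5 rose, 0 fell and the median was 0.34. Of 18 at list genes without one, 6 rose, 2 fell and the median was 0.09. The other 7 tested rows of the list, of which 3 rose and 1 fell, lie over genes for which no promoter entry was used. The difference was not tested, and CARS1-AS1 and ENSG00000302960 are in neither count. All cells had been given actinomycin D, so neither this split nor the one by ERSE below measures promoter activity.

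Of 22 tested rows over endoplasmic reticulum chaperone and unfolded protein response genes, 3 rose, 8 fell and 11 were not called, with a median of -0.08. CATSPER2P1, a pseudogene whose listed span takes in exons of the disulfide isomerase gene PDIA3 and whose reads its parent gene CATSPER2 may share, fell from 1278 ± 52.5 to 855 ± 35.6 CPM (log2 fold change -0.58, edgeR, adjusted p = 4.8e-28). ENSG00000257342, over the lectin gene OS9 of the degradation pathway, changed by -0.46 and ENSG00000293399, over the chaperone gene HSP90B1, by -0.33 (edgeR, adjusted p = 1.3e-15 and 4.4e-09). ENSG00000288988, over the secreted stress factor gene MANF and within DOCK3, changed by -0.90 (adjusted p = 7.8e-10). ENSG00000262831, over the abundant isomerase gene P4HB, stood at 2317 and 2322 CPM and was not called (0.00, adjusted p = 0.96). Those that rose were ENSG00000258757 over the oxidase gene ERO1A (1.16, edgeR, adjusted p = 1.5e-20), SNHG4, over SIL1 and also MATR3 (1.18, adjusted p = 1.0e-112), and MBTPS1-DT (0.71, adjusted p = 0.012). MBTPS1-DT lost its call without siCtrl replicate 1 (adjusted p = 0.209) or siSFPQ replicate 1 (0.0527) and with DESeq2 (0.110). At list genes with an ERSE or ERSE-II in the window only 2 rows were tested, of which 0 rose and 1 fell. Of 18 at list genes without either, 3 rose and 6 fell, and 2 further rows were at genes for which no promoter entry was used.

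Of 25 tested rows over immediate early genes, 6 rose, 4 fell and 15 were not called, with a median of -0.04. Plain library totals gave 10 higher and 4 lower, and DESeq2 3 and 3. The rises included ENSG00000299858 over the AP-1 gene JUND, from 21.7 ± 4.36 to 78.6 ± 4.84 CPM (log2 fold change 1.85, edgeR, adjusted p = 7.4e-29), and ENSG00000253125, over the zinc finger gene EGR3 and the neighbouring PEBP4 (1.94, adjusted p = 1.4e-05). ENSG00000288007, over ATF3, a gene also of the integrated stress list, rose by 1.21 (adjusted p = 1.5e-08). IER5L-AS1 rose by 0.72 (edgeR, adjusted p = 0.0065) but lost its call without siCtrl replicate 3 (adjusted p = 0.0503) and with DESeq2 (0.0751). The falls were LIF-AS2 at the cytokine gene LIF (-0.63), ENSG00000272691 over the matricellular gene CCN1 (-0.64), ID2-AS1 at the differentiation inhibitor gene ID2 (-0.61) and ENSG00000290074 over MCL1 and ENSA (-0.48, edgeR, adjusted p = 0.0044). The last lost its call without siCtrl replicate 1 (adjusted p = 0.117) or siSFPQ replicate 2 (0.120) and with DESeq2 (0.0800), and its groups overlapped. At CSRNP1, 3 rows had log2 fold changes of -0.31, -0.07 and 0.49 and none was called (edgeR, adjusted p = 0.17, 0.84 and 0.053).

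Rows over cytosolic and mitochondrial chaperone genes, which serve protein folding outside the endoplasmic reticulum, were counted for comparison. Their median was 0.27, and 10 of 21 tested rows rose while 3 fell. ENSG00000289613 over the ribosome-bound cochaperone gene DNAJC2 rose by 0.88 and ITFG2-AS1, whose span takes in FKBP4, by 0.32 (edgeR, adjusted p = 3.3e-17 and 7.8e-11). SNHG32, whose span takes in HSPA1B, and ENSG00000271980 over CCT5 rose by 0.29 and 0.27. ENSG00000297932 over CHORDC1, ENSG00000286018 over CCT8 and ENSG00000296557 over HSPB1 changed by -0.65, -0.35 and -0.31 (edgeR, adjusted p = 3.3e-08, 1.1e-10 and 4.7e-04). Differences between the lists were not tested.

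**Figure D4:**
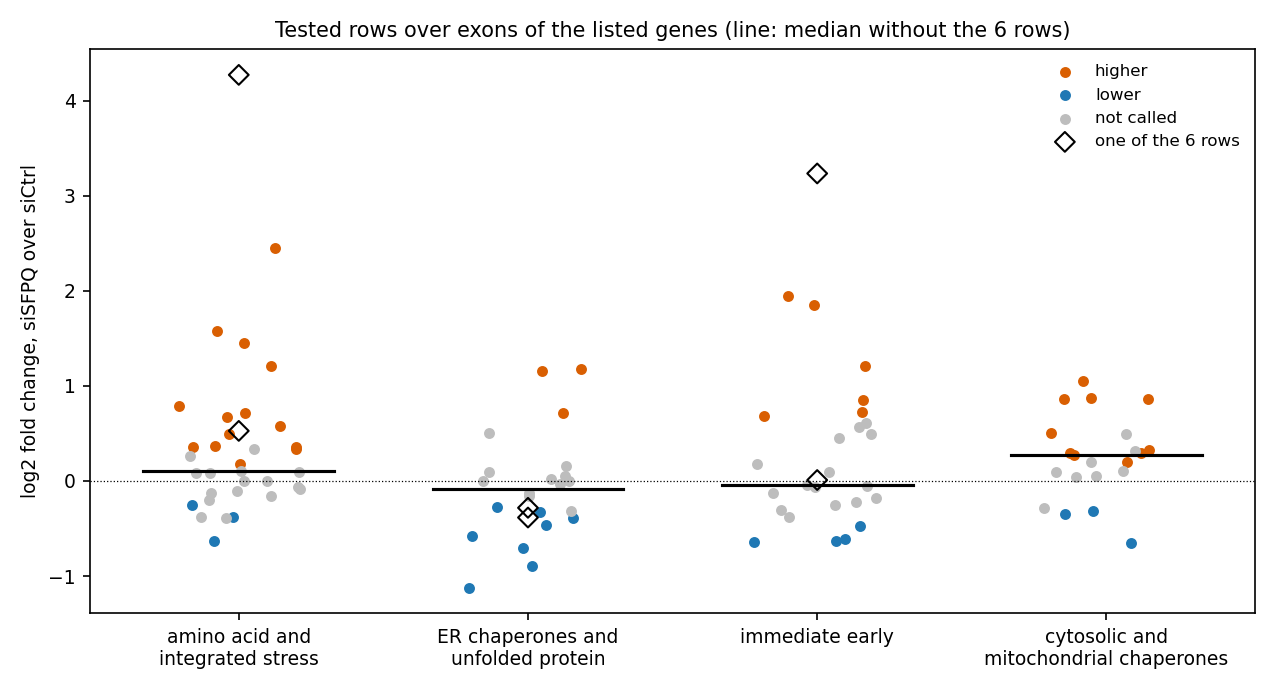
Log2 fold change of siSFPQ over siCtrl for tested rows over exons of the genes of 4 lists, coloured by edgeR call at an adjusted p under 0.05; diamonds are the 6 rows and lines the median of the others (0.10, -0.08, -0.04 and 0.27). ENSG00000302960 and ENSG00000287296 stand above all other tested rows of their lists, and the rows at HYOU1 and CALR lie within the range of the 8 that fell. The 6 rows were chosen with these values known, so nothing is read from their place.

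Rows most like each of the 6 were sought by the root-mean-square difference of mean-centred log2 CPM over the 6 libraries, among rows with a mean of at least 5 CPM. ENSG00000302960 was nearest to ENSG00000287296 (0.209), and ENSG00000259536 was nearer still to ENSG00000287296 (0.136). The rows at TRIB3 and IER2 were both chosen from this contrast. Both have few siCtrl counts, so their distance also depends on the prior count added before taking logs. CARS1-AS1 was nearest to ENSG00000284707, the row over ASNS (0.0488), and almost as near to ZNF8-ERVK3-1 (0.0504), which lies over no gene of the lists. HYOU1-AS1 was nearest to POLR1HASP (0.0277) and ENSG00000290683 (0.0289), and ENSG00000267458 to PSMA3-AS1 (0.0221) and NECTIN3-AS1 (0.0227). ENSG00000267598, which did not shift, was nearest to OBI1-AS1 (0.0329). The measure mostly follows the difference between the groups that was used to choose the rows.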

How the data were processed

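Poly(A)-selected RNA of 6 U-2OS libraries was made into stranded libraries, per the labels' protocols. The authors deposited raw read counts per row, whole numbers with no normalisation, in 1 table; the other column used, the exonic length, is as the file headers name it. Aligner, counter and build are not given in the sources used here. Among 13886 row identifiers also in GENCODE 29 (GRCh38), all were on the matching chromosome and 13874 overlapped in position, so positions were read as GRCh38.

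Counts were fitted with edgeR 4.0.16 (R 4.3.3): filterByExpr, TMM, robust quasi-likelihood, a two-sided test of the siRNA group with no covariate, Benjamini-Hochberg adjustment over 6325 tested rows, threshold 0.05; 14030 rows had no count and 14681 too few. The SE given with a log2 fold change is its absolute value divided by the square root of the quasi-likelihood F statistic. It is approximate, above all for rows with few counts. The fit was tested on simulated data. A row belonged to a list where its listed span overlapped a GENCODE 29 exon of a list gene on either strand. Named rows were the 6, those within 10 kb of their coding genes, per list up to 4 in each direction with the smallest adjusted p and a mean of at least 5 CPM, and the 2 nearest in pattern. GARS1-DT and the rows over P4HB and CSRNP1 were added after their values were seen. The members and lists were chosen with earlier results of these data known. Replicates differed beyond sampling noise (chi-square per degree of freedom 1.24 to 1.40), so no pair agreed within counting error. Alternatives were RLE and upper-quartile scaling, plain totals, other filters, DESeq2 1.42.0, limma-voom (limma 3.58.1), the replicate number as a block, a wider locus rule and each library left out in turn.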

Additional observations from a re-analysis of the deposited data

How the results depend on the processing

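Of 84 values of the 6 rows under the alternatives (scalings, filters, DESeq2, limma-voom, replicate block, each library left out), 78 moved by less than the spread between replicates and 0 changed direction among the 5 rows whose groups were apart. The log2 fold change of ENSG00000302960 was 3.88 with limma-voom and ran from 3.78 to 4.61 with a library left out. ENSG00000267598 ran from -0.06 to 0.09. DESeq2 called 1013 of all tested rows higher and 1074 lower. Rows called higher over immediate early genes numbered 10 with plain library totals and 3 with DESeq2; the cause was not tested. Plain totals moved the median of all tested rows from 0.01 to 0.07. The other list counts stayed within 1.5 times, also with the replicate block and with coding spans widened by 1 kb. Same-numbered libraries did not deviate together (r of deviations from -0.005 to 0.010 over 3 pairs), so the numbers were not taken as pairs; the block called 1535 rows higher and 1515 lower. Of 574 values of the other named rows, 556 kept their side of the threshold, 15 lost a call, 3 gained one and 0 reversed. Low counts limit ENSG00000302960 and ENSG00000287296, with 2 and 8 counts over the siCtrl libraries.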

Other observations

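The share of a row's own exon bases that fall on coding exons was tabulated after the values above were seen, for the 3775 tested rows with GENCODE 29 exons. The 377 rows with a share of 90% or more had a median siCtrl level of 88.8 CPM per kb and the 2066 with a share under 10% one of 7.48. Of the former 110 were called higher and 95 lower (edgeR), with a median log2 fold change of 0.00, and of the latter 586 and 464, with a median of 0.05. HYOU1-AS1, ENSG00000267458 and ENSG00000267598 belong to the first class and CARS1-AS1 to the second. These are values over rows, and no difference between the classes was tested.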
